A study of Sus scrofa with 24 samples.

Results

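The 10 antioxidant genes described here code for enzymes that remove superoxide and peroxides, together with GCLM, a subunit of the enzyme that makes the precursor of glutathione. They are SOD1, SOD2, SOD3, CAT, GPX1, GPX3, GPX4, PRDX3, PRDX6 and GCLM, taken as every probe set whose only gene symbol in the platform annotation is one of these. All 10 were found, on 12 of the 24118 probe sets of the array and as 10 of its 6765 genes with a symbol of their own, since GPX4 and GCLM have a pair of probe sets each. Messenger RNA was measured on Affymetrix porcine arrays, 1 array per animal, in 24 offspring of German Landrace gilts that received a diet high in protein during gestation. The offspring fall into 4 stages of 6 animals: fetuses at 94 days post conception (94 dpc) and pigs at 1, 28 and 188 days post natum (dpn). The diet of the mothers was the same in all 4 stages, and no other diet was analysed here, so the comparisons below are between ages and not between diets. Each stage drew on the litters of 3 gilts. Since the labels do not tie animals to mothers, some of the 6 animals of a stage share one, and the p-values, which treat them as independent, may be too small. The labels do not give sex, the muscle sampled or the array batch.

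Superoxide, which leaks from the respiratory chain and is made by NADPH oxidases, is turned into hydrogen peroxide by superoxide dismutases. Catalase, glutathione peroxidases and peroxiredoxins then reduce hydrogen peroxide or lipid peroxides, in different compartments and with different electron donors. Glutathione peroxidases draw on glutathione, whose synthesis is limited by glutamate cysteine ligase, and most peroxiredoxins draw on thioredoxin. In skeletal muscle, a tissue rich in mitochondria, these enzymes are known to vary with oxidative capacity and with age.

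The labels name liver as the tissue and the title of the series names muscle. The median of 16 measured skeletal muscle markers stood between the 99.3 and the 99.8 percentile of all probe sets in every array. The median of 19 hepatocyte and plasma protein markers stood between the 19.3 and the 98.2 percentile. At 28 dpn 8 of the 19 had a geometric mean under a signal of 74.7, taken as background, among them the liver enzymes CPS1, ARG1 and CYP2E1. At 94 dpc and at 1 dpn 2 lay under it, CYP2E1 and ARG1, and at 188 dpn 0. The values at 28 dpn therefore went against the label liver. A few arrays stood apart within their stage. At 1 dpn, animals 1 to 3 had a 5′ to 3′ signal ratio of the control transcript EF1A of 0.135, 0.105 and 0.0963, against 0.703, 0.670 and 0.674 in animals 4 to 6. At 188 dpn, animals 1 to 3 had medians of the plasma protein markers of 10501, 8384 and 1258, against 30.5, 26.4 and 91.5 in animals 4 to 6. Among the newborns, animals 1, 3 and 6 had plasma protein marker medians of 684, 1159 and 814, against 62.4, 110 and 75.2 in animals 2, 4 and 5. At 94 dpc, animal 5 had a summed signal of 26032 over the 7 measured of 12 macrophage markers, where the stage median was 3904, and the lowest sum of muscle markers, 275051. Without this fetus 7 antioxidant genes were called at 1 dpn against 94 dpc, where PRDX3 (0.52, adjusted p = 0.0721) and PRDX6 did not pass, 10 at 188 dpn against 94 dpc and 9 at 28 dpn against 94 dpc. In the same order 2183, 2866 and 2298 of 23935 probe sets were higher and 4387, 6161 and 3678 lower. The part of other tissue or cells in these values was not tested. Results that rest on the split of the 1 dpn arrays by 5′ signal, or of the 188 dpn arrays by plasma protein signal, are given with and without them. Over all probe sets, correlations between arrays ran between 0.776 and 0.922.

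All 10 antioxidant genes had a higher signal at 188 dpn than at 94 dpc, and in each of them the 6 older animals all lay above the 6 fetuses. Over all probe sets 12.5% were higher and 27.4% lower in this comparison, and 9.58% did not overlap upward. For SOD3, 0 of 6 fetuses were above background. Between 94 dpc and 1 dpn 9 of the 10 genes were higher, where 10.1% of all probe sets were higher and 20.8% lower. After birth the calls differed between genes. The mitochondrial enzymes SOD2 and PRDX3 and the peroxiredoxin PRDX6 were higher again at 28 dpn than at 1 dpn, and GCLM was lower. SOD1, CAT, GPX3 and GCLM were higher at 188 dpn than at 28 dpn. Genes were not tested against each other. At 28 dpn against 1 dpn the difference of GPX3, not called, was 0.94, and that of SOD2, called, was 0.83. Signals are the deposited scaled intensities, in arbitrary units, and each difference is the mean log2 signal of the later stage minus that of the earlier one, with its standard error, from limma with Benjamini-Hochberg adjustment over 23935 probe sets and a threshold of 0.05. Because the arrays read a piece of tissue, fewer cells of a type and less RNA per cell cannot be told apart in any of these values. The plot of each gene's signal by animal shows these courses.

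**Figure D1:**
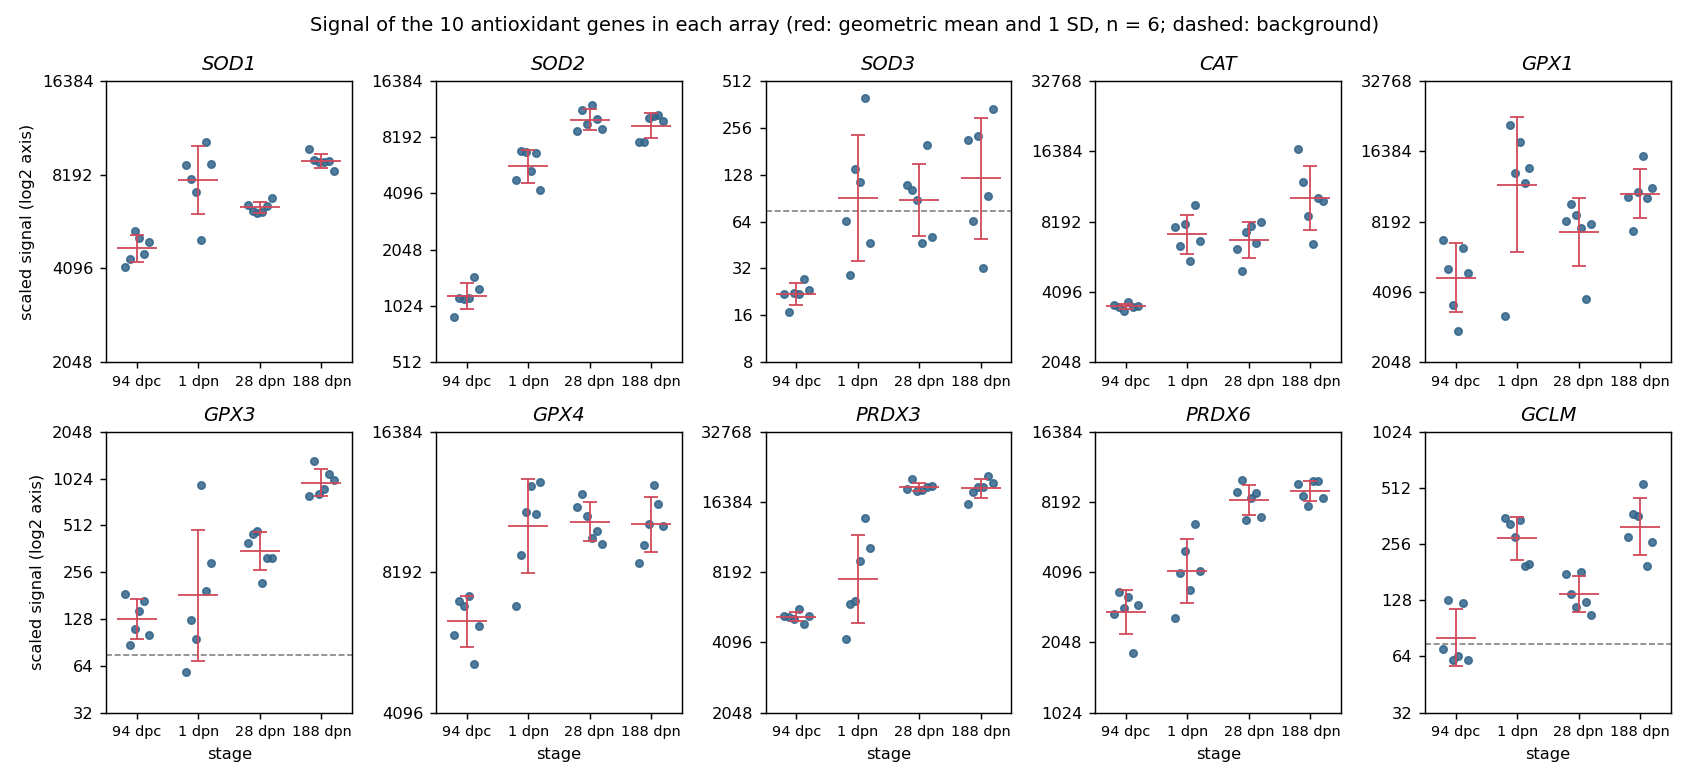
Scaled signal of the brightest probe set of each of the 10 genes in each of the 24 arrays (y axis, log2 scale, arbitrary units) by stage (x axis), with the geometric mean and 1 SD of the log2 values in red (n = 6 per stage) and the background signal of 74.7 as a dashed line. The 188 dpn points lie above all 94 dpc points in all 10 panels, as for 9.58% of all probe sets. At 1 dpn the points of GPX1, GPX3, PRDX3 and SOD3 spread widely.

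SOD2, the superoxide dismutase of the mitochondrial matrix, which holds manganese, was higher at 1 dpn than at 94 dpc and higher again at 28 dpn. Its signal was 895 at the lowest, 1126 at the median and 1465 at the highest in the fetuses, and 4286, 6089 and 6892 at 1 dpn. At 28 dpn these values were 8842, 9963 and 12168, and at 188 dpn 7742, 10173 and 10732. Every newborn exceeded every fetus and every pig of 28 dpn exceeded every newborn, while the 2 oldest stages overlapped over most of their range. SOD2 was 4.98-fold higher at 1 dpn than at 94 dpc (log2 difference 2.32 ± 0.16, adjusted p = 1.02e-09) and 1.77-fold higher at 28 dpn than at 1 dpn (0.83 ± 0.16, adjusted p = 0.000713). Between 188 dpn and 28 dpn the difference of -0.11 ± 0.16 did not pass (adjusted p = 0.743). At 188 dpn the signal was 8.21 times that at 94 dpc, and no alternative processing took away this call.

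SOD1, the copper and zinc enzyme of the cytosol, was bright at every stage. The lowest, median and highest signals were 4152, 4771 and 5388 at 94 dpc and 5047, 8377 and 10471 at 1 dpn. They were 6180.2, 6389.8 and 6905 at 28 dpn and 8422, 9037 and 9881 at 188 dpn. The newborns spread from the fetal range to above the oldest pigs, while the 28 dpn and 188 dpn arrays were tight and did not overlap. SOD1 was 1.66-fold higher at 1 dpn than at 94 dpc (0.73 ± 0.14, adjusted p = 0.000428) and 1.41-fold higher at 188 dpn than at 28 dpn (0.49 ± 0.14, adjusted p = 0.0201). At 28 dpn it stood 0.29 ± 0.14 below 1 dpn, which did not pass (adjusted p = 0.162), but the difference was -0.42 with an adjusted p of 0.0146 when animal 4 of 1 dpn was left out. In the order of its stage means, 94 dpc, 28 dpn, 1 dpn and 188 dpn, the lowest neighbours differed (28 dpn against 94 dpc, adjusted p = 0.0231) and the upper pairs did not. That lowest step was 0.40 with an adjusted p of 0.0551 without animal 1 of 94 dpc, and under quantile normalization it was 0.13 (adjusted p = 0.536).

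SOD3, the secreted enzyme that binds to extracellular matrix and vessel walls, was near the detection limit. Background, taken as a signal of 74.7, was exceeded in none of 6 fetuses, 3 of 6 newborns, 4 of 6 pigs at 28 dpn and 4 of 6 at 188 dpn. The fetal signals lay between 16.7 and 27.2, with a median of 22.1. The newborn signals ran through 29.0, 89.7 and 401 as lowest, median and highest, those at 28 dpn through 46.6, 94.6 and 199.6, and those at 188 dpn through 32.0, 153 and 339. No fetus reached the lowest later animal, but the later stages overlapped one another over nearly their whole range. Relative to background, SOD3 was at least 1.22-fold higher at 1 dpn, 1.18-fold at 28 dpn and 1.63-fold at 188 dpn than at 94 dpc. These bounds were not tested. The differences of the deposited values, with all fetuses under background, were 2.05, 2.00 and 2.47 (adjusted p = 0.0078, 0.0101 and 0.00113). No step between later stages passed.

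CAT, the catalase of peroxisomes, had the narrowest fetal values of all 10 genes, with 3402, 3541 and 3695 as lowest, median and highest. The same values were 5526, 7253 and 9614 at 1 dpn and 5023, 7041 and 8135 at 28 dpn. At 188 dpn they were 6587, 10180.1 and 16791. Each later animal exceeded each fetus, the newborns and the 28 dpn pigs covered the same range, and 5 of the 6 oldest pigs exceeded all 28 dpn pigs. CAT was 2.04-fold higher at 1 dpn than at 94 dpc (1.03 ± 0.19, adjusted p = 0.000207) and stood 0.09 ± 0.19 lower at 28 dpn than at 1 dpn, which did not pass (adjusted p = 0.802). At 188 dpn it was 1.51-fold higher than at 28 dpn (0.60 ± 0.19, adjusted p = 0.0323) and 1.43-fold higher than at 1 dpn (0.51 ± 0.19, adjusted p = 0.0354).

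Both of these late steps of CAT were close to the threshold and hung on single arrays. The step against 28 dpn lost its call without animal 1, 2 or 5 of either stage, at differences between 0.46 and 0.60 and adjusted p-values between 0.0515 and 0.0839. The step against 1 dpn lost it without animal 2, 4 or 6 of 1 dpn or animal 1, 2 or 5 of 188 dpn, at differences between 0.37 and 0.51 and adjusted p-values between 0.053 and 0.105. It also lost it under quantile normalization (0.43, adjusted p = 0.0928), with array weights (0.50, adjusted p = 0.0726) and with only these 2 stages in the fit (adjusted p = 0.140). Without newborns 1 to 3 it was 0.54 (adjusted p = 0.0974), and without newborns 4 to 6 it was 0.49 (adjusted p = 0.0904). CAT is also abundant in liver, and it had a geometric mean of 12073 in the 3 arrays of 188 dpn with high plasma protein signal, against 8805 in the other 3. Without the high arrays the step against 28 dpn was 0.37 (adjusted p = 0.309) and that against 1 dpn 0.28 (adjusted p = 0.336), and the part of other tissue in them was not tested. The difference of 1.54 ± 0.19 between 188 dpn and 94 dpc, a 2.91-fold higher signal (adjusted p = 5.28e-07), held in every alternative.

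**Figure D2:**
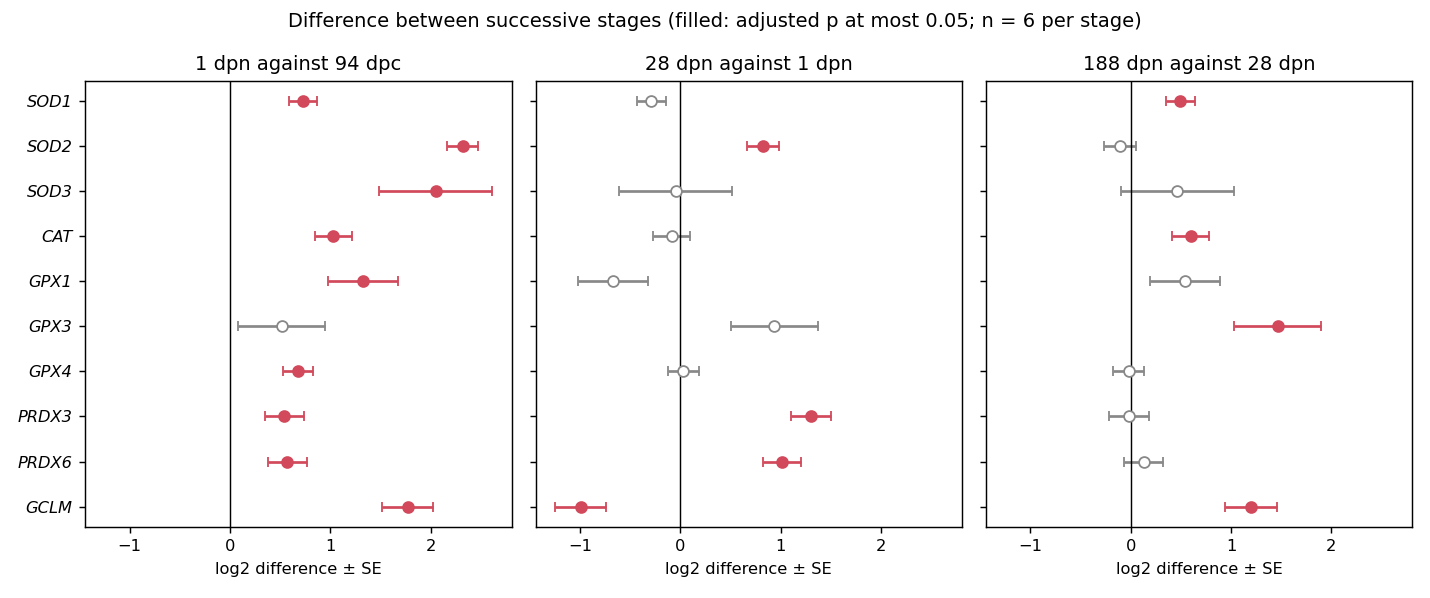
Log2 difference in signal (x axis, later minus earlier stage, with its SE) of the brightest probe set of each of the 10 genes (rows) for 1 dpn against 94 dpc, 28 dpn against 1 dpn and 188 dpn against 28 dpn, n = 6 per stage, with filled points for an adjusted p of at most 0.05. In the first panel 9 points are filled and all lie right of 0, in the second 3 filled points lie right and GCLM left of 0, and in the third 4 filled points lie right of 0. Over all probe sets 10.1%, 11.6% and 4.12% were higher and 20.8%, 9.10% and 10.5% lower in these comparisons.

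Of the glutathione peroxidases, GPX4, the enzyme that reduces lipid peroxides within membranes, was higher at 1 dpn than at 94 dpc. Its brighter probe set had lowest, median and highest signals of 5218, 6607 and 7287 at 94 dpc and 6933, 10988 and 12810.0 at 1 dpn. They were 9393, 10419 and 12043 at 28 dpn and 8565, 10360.5 and 12576 at 188 dpn. Only 1 newborn reached into the fetal range, and the 3 stages after birth overlapped. GPX4 was 1.60-fold higher at 1 dpn than at 94 dpc (0.68 ± 0.15, adjusted p = 0.00163), and the steps of 0.03 ± 0.15 and -0.02 ± 0.15 that followed did not pass (adjusted p = 0.926 and 0.959). Against 94 dpc it was 1.63-fold higher at 28 dpn (adjusted p = 0.00122) and 1.61-fold higher at 188 dpn (adjusted p = 0.000846). These 3 calls were lost under quantile normalization, where the differences were 0.23 at 1 dpn, 0.25 at 28 dpn and 0.18 at 188 dpn (adjusted p = 0.217, 0.190 and 0.340).

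The second GPX4 probe set went the other way at a far lower signal. Its geometric means were 95.7 at 94 dpc, 82.9 at 1 dpn, 51.9 at 28 dpn and 29.1 at 188 dpn, with 4, 4, 2 and 0 of 6 arrays above background. It was at least 1.28-fold lower at 188 dpn than at 94 dpc, with no overlap between these stages, and at least 1.11-fold lower at 188 dpn than at 1 dpn. These bounds were not tested. The differences of the deposited values were -1.72 and -1.51 (adjusted p = 0.00375 and 0.0115). The call against 1 dpn was lost without newborns 1 to 3 (adjusted p = 0.0653) and without the 188 dpn arrays of high plasma protein signal (adjusted p = 0.104). The disagreement means that the mean of both probe sets gave no call for GPX4 at 1 dpn against 94 dpc (0.24, adjusted p = 0.502) at 28 dpn against 94 dpc (-0.0862, adjusted p = 0.835) or at 188 dpn against 94 dpc (-0.51, adjusted p = 0.0960), and the last 2 of these changed sign. That mean was lower at 188 dpn than at 1 dpn (-0.75, adjusted p = 0.0178). Which transcript the dim probe set reads was not tested.

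GPX1, the main cytosolic glutathione peroxidase, was among the most variable members. Its lowest, median and highest signals were 2787, 5033 and 6849 at 94 dpc and 3225, 13551 and 21204 at 1 dpn. They were 3822, 8126 and 9747 at 28 dpn and 7441, 10724 and 15683 at 188 dpn. At 1 dpn 5 animals lay above all fetuses and animal 1 lay within the fetal range, and at 28 dpn animal 5 fell far below its 5 stage mates. GPX1 was 2.50-fold higher at 1 dpn than at 94 dpc (1.32 ± 0.35, adjusted p = 0.00594) and 2.29-fold higher at 188 dpn than at 94 dpc (1.19 ± 0.35, adjusted p = 0.00859). Neither 28 dpn against 1 dpn (-0.67 ± 0.35, adjusted p = 0.195) nor 188 dpn against 28 dpn (0.54 ± 0.35, adjusted p = 0.352) passed, but 28 dpn differed from 1 dpn by -1.04 (adjusted p = 0.00738) without animal 1 of 1 dpn. Under quantile normalization the differences from 94 dpc were 0.93 at 1 dpn (adjusted p = 0.0585) and 0.73 at 188 dpn (adjusted p = 0.123), and neither passed.

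GPX3, the secreted plasma enzyme of the family, was highest at 188 dpn. Signals were 87.7, 127 and 185 as lowest, median and highest at 94 dpc and 58.8, 160.0 and 925 at 1 dpn. At 28 dpn they were 219, 356 and 471, and at 188 dpn 790.5, 939.7 and 1319. The 3 stages 94 dpc, 28 dpn and 188 dpn formed separate steps without overlap, while the newborns reached into the ranges of all 3, with 5 of 6 above background. GPX3 was 2.76-fold higher at 188 dpn than at 28 dpn (1.46 ± 0.43, adjusted p = 0.0249) and 2.74-fold higher at 28 dpn than at 94 dpc (1.45 ± 0.43, adjusted p = 0.0147), which made it 7.55-fold higher at 188 dpn than at 94 dpc (2.92 ± 0.43, adjusted p = 9.09e-06). The step against 28 dpn was 1.33 (adjusted p = 0.0599) without animal 4 of 28 dpn and 1.38 (adjusted p = 0.0565) without animal 2 of 188 dpn. GPX3 was the member that did not pass between 1 dpn and 94 dpc (0.52 ± 0.43, adjusted p = 0.406), nor did it pass between 28 dpn and 1 dpn (0.94 ± 0.43, adjusted p = 0.136), where leaving out animal 4 of 1 dpn gave 1.41 (adjusted p = 0.00314). In the 188 dpn arrays with high plasma protein signal its geometric mean was 945, against 985 in the other 3.

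The peroxiredoxins PRDX3 and PRDX6 were higher at 28 dpn than at 1 dpn. PRDX3, which removes hydrogen peroxide in the mitochondrial matrix, had lowest, median and highest signals of 4935, 5300.1 and 5691 at 94 dpc and 4239, 7670.3 and 13953 at 1 dpn. They were 18281, 18751 and 20449 at 28 dpn and 16047, 19027 and 21087 at 188 dpn. The fetuses and the 28 dpn pigs were each within a narrow band, the newborns lay between and reached below the fetuses, and no newborn reached the lowest pig of 28 dpn. PRDX3 was 2.47-fold higher at 28 dpn than at 1 dpn (1.30 ± 0.20, adjusted p = 7.86e-05), and 188 dpn differed from 28 dpn by -0.01 ± 0.20, which did not pass (adjusted p = 0.978). The step of 0.54 ± 0.20 between 1 dpn and 94 dpc passed narrowly (adjusted p = 0.0414). It lost its call without any of animals 1, 2, 3, 5 or 6 of 94 dpc or animals 4, 5 or 6 of 1 dpn, at differences between 0.37 and 0.55 and adjusted p-values up to 0.110, and with only these 2 stages in the fit (adjusted p = 0.164). Which step of PRDX3 was larger turned with the newborns kept. Without newborns 1 to 3 PRDX3 was 0.79 higher at 28 dpn than at 1 dpn (adjusted p = 0.000805) and 1.06 higher at 1 dpn than at 94 dpc (adjusted p = 1.76e-05).

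PRDX6, which also reduces phospholipid peroxides and uses glutathione rather than thioredoxin, had calls in the same comparisons. Its lowest, median and highest signals were 1838, 2923 and 3369 at 94 dpc and 2606, 4095 and 6585 at 1 dpn. They were 6858, 8749.6 and 10138 at 28 dpn and 7899, 9219 and 10104 at 188 dpn. Newborns and fetuses overlapped, newborns and 28 dpn pigs did not, and the 2 oldest stages covered the same range. PRDX6 was 1.49-fold higher at 1 dpn than at 94 dpc (0.57 ± 0.19, adjusted p = 0.0254) and 2.02-fold higher at 28 dpn than at 1 dpn (1.02 ± 0.19, adjusted p = 0.000608). The first step lost its call without animal 5 of 94 dpc (0.45, adjusted p = 0.0737), animal 3 of 1 dpn (0.52, adjusted p = 0.0577) or animal 5 of 1 dpn (0.44, adjusted p = 0.0683), and with only these 2 stages in the fit (adjusted p = 0.110). Without newborns 1 to 3 the steps were 0.71 at 1 dpn against 94 dpc (adjusted p = 0.0177) and 0.88 at 28 dpn against 1 dpn (adjusted p = 0.00901). At 188 dpn PRDX6 was 3.29-fold and PRDX3 3.56-fold higher than at 94 dpc (1.72 ± 0.19 and 1.83 ± 0.20, adjusted p = 1.66e-07 and 1.21e-07), without overlap and in every alternative.

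GCLM, the modifier subunit of glutamate cysteine ligase, was higher at 1 dpn than at 94 dpc, lower at 28 dpn than at 1 dpn and higher at 188 dpn than at 28 dpn. Its brighter probe set had 61.3, 67.6 and 129 as lowest, median and highest signals at 94 dpc, with 2 of 6 fetuses above background, and 195, 303 and 352 at 1 dpn. At 28 dpn the values were 106, 132 and 181, and at 188 dpn 195, 319 and 537. The 28 dpn pigs all lay below the newborns and all below the oldest pigs, whose ranges overlapped each other. GCLM was 3.41-fold higher at 1 dpn than at 94 dpc (1.77 ± 0.26, adjusted p = 1.79e-05). At 28 dpn it was lower than at 1 dpn by a factor of 1.99 (-0.99 ± 0.26, adjusted p = 0.00767), and at 188 dpn it was 2.29-fold higher than at 28 dpn (1.20 ± 0.26, adjusted p = 0.0024). The 188 dpn and 1 dpn levels differed by 0.21 ± 0.26, which did not pass (adjusted p = 0.583). Against 94 dpc the 28 dpn level was still 1.71-fold higher (0.78 ± 0.26, adjusted p = 0.0262), a call that was lost without animal 1, 3, 4 or 6 of 94 dpc or animal 1 or 4 of 28 dpn, at differences between 0.70 and 0.74 and adjusted p-values up to 0.0637. The second GCLM probe set was under background in 22 of 24 arrays, with geometric means of 32.4, 54.5, 22.1 and 27.5 in the order of age, and gave no call. With the mean of both GCLM probe sets the calls at 188 dpn against 28 dpn (0.76, adjusted p = 0.156) and at 28 dpn against 94 dpc (0.11, adjusted p = 0.851) were lost.

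In the first comparison, 1 dpn against 94 dpc, 9 of the 10 genes were higher and none was lower, where 31.0% of all probe sets passed the threshold in either direction, 10.1% higher and 20.8% lower. For 4 genes, SOD2, SOD3, CAT and GCLM, the 6 newborns all lay above the 6 fetuses, as was the case for 5.05% of all probe sets, with 8.66% the other way. Of these, SOD3 had 0 of 6 fetuses and 3 of 6 newborns above background. The median difference of the 10 genes was 0.88, or 0.70 with SOD3 at its bound, against -0.15 over all probe sets. Relative to that shift of all probe sets the differences were 0.67 for GPX3 at the low end and 2.47 for SOD2 at the high end. The scaling of the arrays bears on this count. Among all called probe sets 32.8% were higher as deposited, 47.7% after quantile normalization and 59.2% after the median of every array was set equal (centring). Under quantile normalization 5 of the 10 genes passed, and GPX1, GPX4, PRDX3 (0.16, adjusted p = 0.569) and PRDX6 (0.39, adjusted p = 0.127) no longer did. All 10 differences stayed above 0 under both scalings.

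Between 28 dpn and 1 dpn SOD2, PRDX3 and PRDX6 were higher, GCLM was lower and 6 genes did not pass, where 20.7% of all probe sets passed in either direction, 11.6% higher and 9.10% lower. The stages did not overlap in any of the 4 called genes, which held for 5.59% of all probe sets upward and 3.81% downward. The median difference was -0.01, against 0.02 over all probe sets. For 188 dpn against 28 dpn, SOD1, CAT, GPX3 and GCLM were higher and none was lower. Here 14.6% of all probe sets passed, 4.12% higher and 10.5% lower, and the median difference was 0.48 against -0.18 over all probe sets. SOD1, GPX3 and GCLM did not overlap between these stages, which held for 4.41% of all probe sets upward and 7.84% downward. Under quantile normalization 2 of the 4 calls were lost, those of CAT (0.48, adjusted p = 0.115) and SOD1 (0.35, adjusted p = 0.108), and the share of higher among all called probe sets was 28.2% as deposited, 42.0% after quantile normalization and 62.9% after centring.

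Over the whole span, 188 dpn against 94 dpc, all 10 genes were higher, where 39.9% of all probe sets passed, 12.5% higher and 27.4% lower. None of the 10 overlapped between these stages, as was the case for 9.58% of all probe sets, with 19.5% the other way. Of these, SOD3 had 0 of 6 fetuses and 4 of 6 pigs of 188 dpn above background. The median difference was 1.77, or 1.63 with SOD3 at its bound, against -0.29 over all probe sets. Relative to all probe sets the differences ran between 0.98 for GPX4 and 3.33 for SOD2. Among all called probe sets 31.3% were higher as deposited, 48.9% after quantile normalization and 60.8% after centring, and under quantile normalization GPX1 and GPX4 lost their calls. For 28 dpn against 94 dpc 9 genes were higher, all but GPX1 (0.65 ± 0.35, adjusted p = 0.181), and 8 did not overlap. SOD3 was among the 8, with 4 of 6 pigs of 28 dpn above background. In that comparison 27.8% of all probe sets passed, 10.4% higher and 17.5% lower, and 8.17% did not overlap upward and 13.8% downward. Of the called ones 37.3% were higher as deposited, 50.3% after quantile normalization and 60.5% after centring, and under quantile normalization SOD1 and GPX4 lost their calls. For 188 dpn against 1 dpn SOD2, CAT, GPX3, PRDX3 and PRDX6 were higher, 5 of 10, and SOD2, PRDX3 and PRDX6 did not overlap. There 34.9% of all probe sets passed, 14.1% higher and 20.8% lower, and 7.25% did not overlap upward and 9.50% downward. Of the called ones 40.4%, 48.8% and 54.8% were higher in the same order of scalings. These 6 comparisons share their stages, so a high or low stage enters several of them.

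The newborn stage was the most variable. In 8 of the 10 genes the SD of the log2 signal was highest at 1 dpn, and so it was for 49.2% of all probe sets and for 59% of those above background. The SD of GPX3 was 1.40 at 1 dpn, against 0.43, 0.41 and 0.28 at 94 dpc, 28 dpn and 188 dpn, and that of PRDX3 was 0.63 against 0.07, 0.06 and 0.13. The spread ran along the 5′ signal of the arrays for some members and not for others. PRDX3 had signals of 4239, 5957 and 6186 in newborns 1 to 3, whose EF1A ratio was low, against 9154, 13953 and 10372 in newborns 4 to 6. For GPX3 the geometric means were 89.0 in newborns 1 to 3 and 375 in newborns 4 to 6, and for GPX4 8798 and 12055. For SOD2 these means were 6098 and 5394, and for GCLM 318 and 238. The 2 sets overlapped for SOD2 (4825 to 6892 and 4286 to 6765) and for GCLM (279 to 352 and 195 to 345). They also overlapped for GPX4 (6933 to 11039 and 10936 to 12810). The part of RNA quality in these values was not tested.

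Without newborns 1 to 3, GPX3 passed between 1 dpn and 94 dpc (1.55, adjusted p = 0.00441), so that 10 of the 10 genes were higher, and PRDX3 stood 1.06 above 94 dpc. Of all 23935 probe sets 2029 were higher and 4122 lower in that fit. Without newborns 4 to 6, 5 genes passed, where 2607 probe sets were higher and 4864 lower. PRDX3 then differed by 0.03 (adjusted p = 0.899), PRDX6 by 0.44 (adjusted p = 0.128), and GPX1 by 1.04 (adjusted p = 0.0833), and GPX3 turned to -0.52 (adjusted p = 0.189). SOD3 did not pass either (adjusted p = 0.0672), with a geometric mean of 63.9 in newborns 1 to 3, below background. SOD1, SOD2, CAT, GPX4 and GCLM passed in this comparison with either set of newborns. Between 28 dpn and 1 dpn the fall of GCLM was -0.78 (adjusted p = 0.117) without newborns 1 to 3, and GPX1 then passed at -0.96 (adjusted p = 0.0447). GPX3 passed at 1.97 (adjusted p = 3.79e-05) without newborns 4 to 6. The plot of newborn signals relative to the fetal mean shows the 2 sets side by side.

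**Figure D3:**
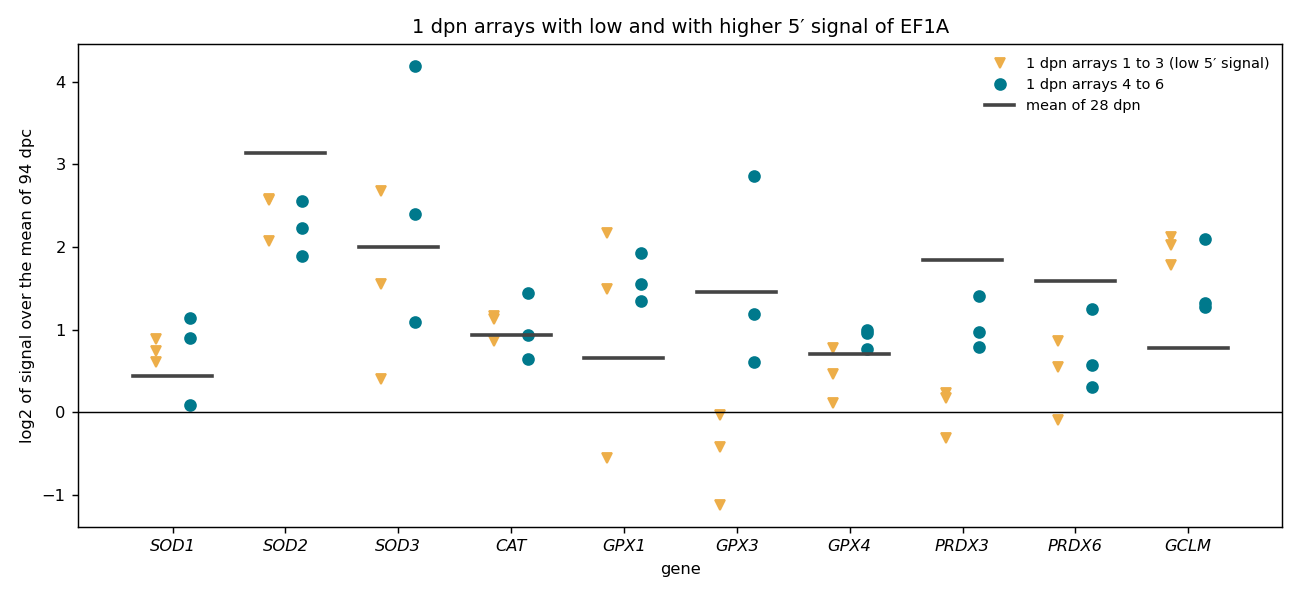
Log2 of the signal of each 1 dpn array over the geometric mean of the 6 arrays of 94 dpc (y axis) for the 10 genes (x axis), with triangles for animals 1 to 3, whose EF1A 5′ to 3′ ratio was 0.0963 to 0.135, circles for animals 4 to 6, whose ratio was 0.670 to 0.703, and grey bars for the mean of 28 dpn. The circles of PRDX3 and GPX3 all lie above the triangles, while both sets mix for SOD1, SOD2 and CAT.

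The oldest stage held a second division. Of the 4 genes that were higher at 188 dpn than at 28 dpn, GCLM remained called without the 3 arrays of high plasma protein signal (1.13, adjusted p = 0.0399), and CAT, SOD1 (0.46, adjusted p = 0.153) and GPX3 (1.50, adjusted p = 0.116) did not. Without the other 3 arrays GCLM and CAT remained called and SOD1 (0.53, adjusted p = 0.0769) and GPX3 (1.43, adjusted p = 0.124) did not. The differences of SOD1 and GPX3 were thus of like size in both subsets of 3 arrays. Of all 23935 probe sets 509 were higher and 1563 lower without the arrays of high plasma protein signal. Without the other 3 these numbers were 686 and 1761. Against 94 dpc, GPX1 at 188 dpn was 1.01 higher (adjusted p = 0.0959) when the arrays of low plasma protein signal were left out, and the other 9 genes kept their calls in both subsets. Over all probe sets 2496 were higher and 5430 lower there without the arrays of high plasma protein signal, and 2334 and 5486 without the others.

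The same stages were read in 11 lists of related genes, each gene by its brightest probe set. Over all probe sets 10.1% were higher and 20.8% lower at 1 dpn against 94 dpc, and 11.6% and 9.10% at 28 dpn against 1 dpn. The shares were 4.12% and 10.5% at 188 dpn against 28 dpn, and 12.5% and 27.4% at 188 dpn against 94 dpc. In the mitochondrial list, which holds respiratory chain subunits, import and matrix proteins, 13 of 16 measured genes were higher at 1 dpn than at 94 dpc and none was lower, with a median difference of 1.10, and under quantile normalization 10 of 16 were higher. The ATP synthase subunit ATP5A1, the brightest of the list, stood at 43142 in newborns, against 20399.5 in fetuses (1.08, adjusted p = 3.9e-05) and NDUFA9, a subunit of complex I, at 14604 against 3552 (2.04, adjusted p = 2.61e-08). Between 28 dpn and 1 dpn 2 mitochondrial genes were higher and 2 lower, 0 and 2 after centring, and between 188 dpn and 28 dpn none was higher and 5 were lower, 7 under quantile normalization and 1 after centring. SOD2 and PRDX3, whose products work in the same organelle, were higher at 28 dpn than at 1 dpn, where the mitochondrial list had a median of 0.13. That median was 0.02 over all probe sets. The matrix chaperone HSPA9 was 1 of the 2 lower genes of the list, at 8932 against 18784 (-1.07, adjusted p = 0.0011). Against these, 2 were higher and 12 were not called. Whether SOD2 and PRDX3 differed from the list was not tested.

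The thioredoxin system supplies electrons to the peroxiredoxins. At 1 dpn against 94 dpc 6 of its 10 measured genes were higher and 1 was lower (median 0.65), a split of 3 and 2 under quantile normalization, where TXN turned to -0.02. The cytosolic peroxiredoxin PRDX1 stood at 9615 in newborns, against 5173 in fetuses (0.89, adjusted p = 0.000305), and thioredoxin reductase TXNRD1 at 1335 against 749 (0.83, adjusted p = 0.00356, and 0.57 with an adjusted p of 0.0909 without newborns 1 to 3). Mitochondrial thioredoxin TXN2, the partner of PRDX3, stood at 3276 against 1771 (0.89, adjusted p = 0.000768). At 28 dpn against 1 dpn, where PRDX3 and PRDX6 were higher, 2 genes of the list were higher and 4 lower. PRDX1, which like TXN2 and TXNRD1 was named after its values were seen, was among the lower, at 5631 against 9615 (-0.77, adjusted p = 0.00214). At 188 dpn PRDX1 stood at 3440.2 against 5631 at 28 dpn (-0.71, adjusted p = 0.00543). PRDX3 (-0.01, adjusted p = 0.978) and PRDX6 (0.13, adjusted p = 0.739) did not pass there. This later step of PRDX1 was not called after centring (-0.44, adjusted p = 0.105) or without animals 4 to 6 of 188 dpn (-0.55, adjusted p = 0.0945). TXNRD1 was lower at 28 dpn than at 1 dpn, at 645 against 1335 (-1.05, adjusted p = 0.000912), and TXNIP, the inhibitor of thioredoxin and brightest of the list, at 21993 against 38942 (-0.82, adjusted p = 0.00207), which was -0.64 (adjusted p = 0.0550) without newborns 1 to 3. PRDX2, abundant in red blood cells, was higher at 188 dpn than at 94 dpc at 12697 against 6123 (1.05, adjusted p = 0.000876), which quantile normalization left at 0.55 (adjusted p = 0.0556). Of the list 1 was higher and 3 lower at 188 dpn than at 28 dpn, which became 3 higher and none lower after centring.

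Among the other glutathione genes, GCLC, the catalytic subunit that GCLM pairs with, stood at 212 in newborns, against 117 in fetuses (0.85, adjusted p = 0.00286), and at 271 at 188 dpn (1.21 above 94 dpc, adjusted p = 4.98e-05). Glutathione synthetase GSS, which completes the molecule, was lower at 28 dpn than at 1 dpn, at 272 against 475 (-0.80, adjusted p = 0.00389). GPX7, a peroxidase of the endoplasmic reticulum and the brightest of this list, was lower at 188 dpn than at 28 dpn, at 266 against 1049.8 (-1.98, adjusted p = 2.05e-06). GPX2 stood at 123 against 694 in that comparison (-2.50, adjusted p = 0.000835). In all 2 of 10 were higher and 1 lower at 1 dpn than at 94 dpc, 1 and 1 at 28 dpn against 1 dpn, and 0 and 2 at 188 dpn against 28 dpn. Of the glutathione transferases 4 of 8 were higher and 2 lower at 1 dpn than at 94 dpc, with the brightest, MGST3, at 9729 against 3782 (1.36, adjusted p = 4.1e-06) and GSTA4 at 349 against 1112 (-1.67, adjusted p = 4.73e-05).

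**Figure D4:**
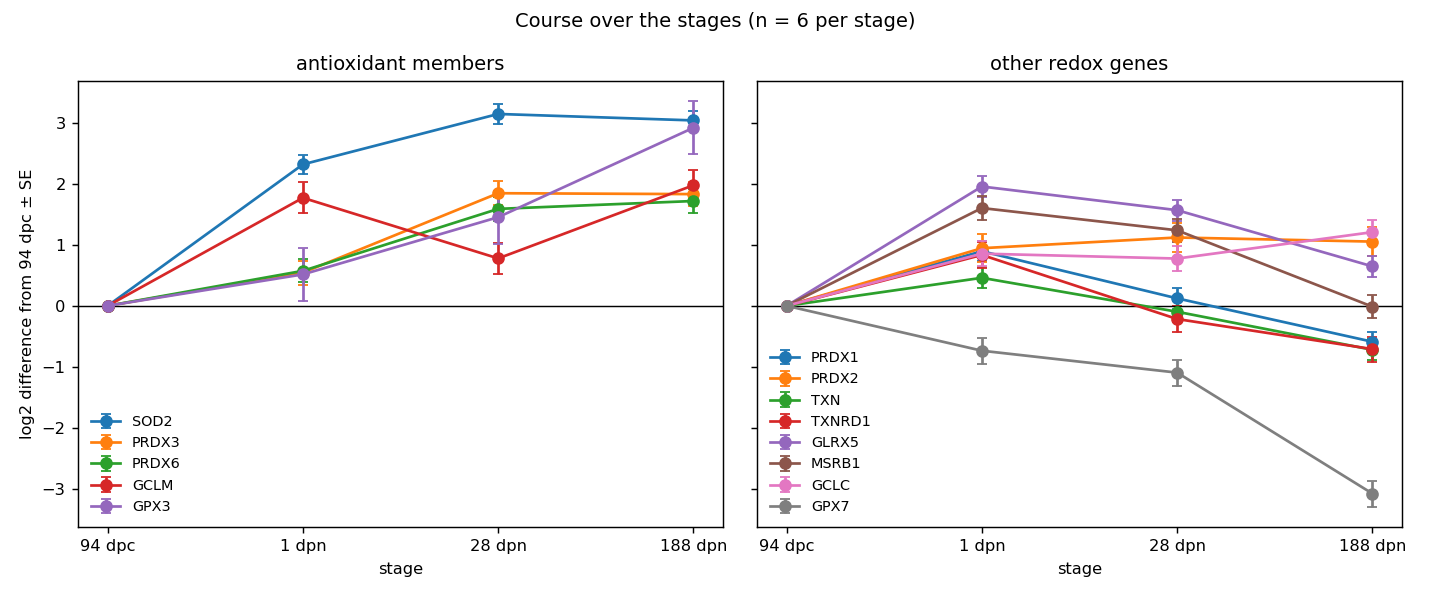
Log2 difference in signal from 94 dpc with its SE (y axis) at the 4 stages (x axis, n = 6 each) for 5 of the antioxidant genes (left) and for 8 other genes of thioredoxin, glutaredoxin and glutathione metabolism (right). On the left SOD2, PRDX3 and PRDX6 stay high at 28 dpn and 188 dpn and GCLM dips at 28 dpn. On the right PRDX1, TXN and TXNRD1 lie below 94 dpc at 188 dpn, and PRDX2, GCLC and GLRX5 lie above it. Of the 10 measured thioredoxin genes 4 were higher and 3 lower in that comparison.

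The glutaredoxins and methionine sulfoxide reductases, which reverse oxidation of protein thiols and of methionine, had 8 measured genes. At 1 dpn against 94 dpc 5 of them were higher and none was lower (median 0.73, and 4 higher under quantile normalization). GLRX5, a mitochondrial protein of iron and sulfur cluster assembly, stood at 5759 against 1486 (1.95, adjusted p = 3.29e-08), and the selenoprotein MSRB1 at 6829 against 2249 (1.60, adjusted p = 1.89e-06). GLRX3, the brightest, stood at 9723 against 6259 (0.64, adjusted p = 0.00197), a call lost under quantile normalization (0.23, adjusted p = 0.229) and without newborns 1 to 3 (0.45, adjusted p = 0.0543). At 188 dpn against 28 dpn none was higher and 4 were lower, which held after centring and after quantile normalization. There MSRB1 stood at 2228 against 5303 (-1.25, adjusted p = 0.000107) and GLRX5 at 2325 against 4402 (-0.92, adjusted p = 0.000759). Between 28 dpn and 1 dpn 1 was higher and 2 were lower.

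GCLM and NQO1 are known targets of the factor NRF2. Of 9 measured NRF2 regulators and other targets 4 were higher at 1 dpn than at 94 dpc and none was lower. Quantile normalization gave 4 higher and 1 lower and turned FTH1, the ferritin heavy chain and brightest of the list, to -0.08, where it was 0.53 as deposited. NQO1 stood at 1070.4 in newborns, against 292 in fetuses (1.87, adjusted p = 0.00213), and the autophagy receptor SQSTM1 at 7789 against 2901 (1.42, adjusted p = 0.000335). SQSTM1 was higher again at 188 dpn than at 28 dpn at 12798 against 4744 (1.43, adjusted p = 0.000813), as was the NADPH producing malic enzyme ME1 at 2397 against 366 (2.71, adjusted p = 5.01e-05). NQO1 stood lower there (-1.29, adjusted p = 0.0488), a call lost under both other scalings. Between 28 dpn and 1 dpn 1 of the 9 was higher and 1 lower, and between 188 dpn and 28 dpn 2 were higher and 1 lower.

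The suppliers of NADPH, which glutathione and thioredoxin reductases consume, had 3 of 10 genes higher at 1 dpn than at 94 dpc and none lower, and 6 higher under either other scaling. IDH2, the mitochondrial enzyme and brightest of the list, stood at 32876 against 7570.4 (2.12, adjusted p = 9.18e-10), and the mitochondrial transhydrogenase NNT at 4778 against 1346 (1.83, adjusted p = 2.39e-07). At 188 dpn against 28 dpn ME1 was higher and 5 were lower, among them PGD of the pentose phosphate pathway at 111 against 247 (-1.15, adjusted p = 0.00165). Centring gave 2 higher and 2 lower in that comparison. Between 28 dpn and 1 dpn none was higher and 2 were lower.

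Of 13 measured selenium genes 2 were higher and 1 lower at 1 dpn than at 94 dpc (2 and 2 under quantile normalization, 4 and 0 after centring), 1 and 2 at 28 dpn against 1 dpn, and 1 and 1 at 188 dpn against 28 dpn. SELENOW, a small muscle selenoprotein, was higher at 28 dpn than at 1 dpn at 3910.0 against 1277 (1.61, adjusted p = 0.000413). Of 8 genes of metal supply 1 was higher and 1 lower at birth. The higher one was CCS, the copper chaperone that loads SOD1, at 1599.5 against 907 (0.82, adjusted p = 0.00227), and it stood at 0.39 (adjusted p = 0.114) without newborns 1 to 3. Of 12 oxidant sources none was higher and 2 were lower at 1 dpn than at 94 dpc. CYBA, the membrane subunit shared by NADPH oxidases and brightest of that list, stood at 461 against 1569 (-1.77, adjusted p = 0.00489), but at -0.77 (adjusted p = 0.209) without newborns 1 to 3. In this comparison 10.1% of all probe sets were higher and 20.8% lower, so counts this small are not read as traits of the selenium, metal or oxidant lists. Of 11 peroxisome genes, the compartment of CAT, 2 were higher and 1 lower at 1 dpn than at 94 dpc, and 5 were higher and 2 lower at 188 dpn than at 94 dpc, a split of 7 and 0 under quantile normalization and of 8 and 0 after centring.

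**Figure D5:**
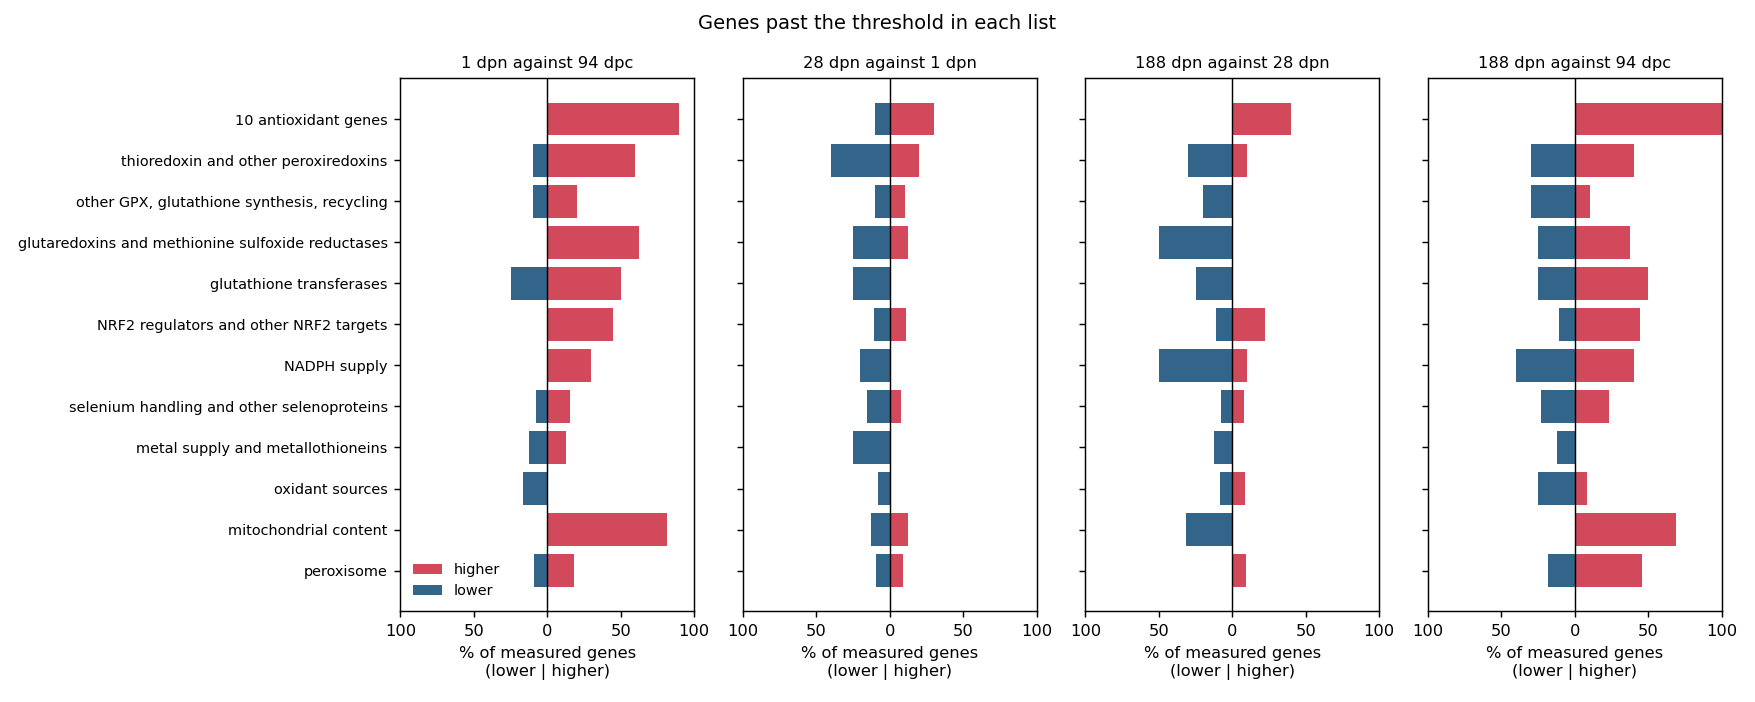
Share of measured genes past the threshold in the 10 antioxidant genes and in 11 related lists (rows), higher to the right in red and lower to the left in blue (x axis, % of measured genes), for 4 comparisons of stages. The bar of the antioxidant genes reaches 100% higher at 188 dpn against 94 dpc, where 8 of the 10 genes remained called under quantile normalization. Over all probe sets, which have no bar, 12.5% were higher and 27.4% lower in that comparison.

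Across the 24 arrays PRDX3 and PRDX6 were the most alike of the member pairs, with a Pearson correlation of log2 signals of 0.942, and SOD1 and CAT (0.862) and SOD2 and PRDX6 (0.849) followed. PRDX3 and GCLM were the least alike at 0.344. These correlations describe arrays that share 4 ages, so genes with any similar age course correlate. Among 5472 other genes above background, PRDX6 was most like the glycogen enzyme PGM1 (0.982), TMOD4 (0.977) and GPD1 (0.974), and PRDX3 most like TPI1 (0.974), TMOD4 (0.972) and PGM1 (0.969). SOD2 was most like PYGM (0.970), the glycogen phosphorylase of muscle, SPR (0.966) and FBP2 (0.962). GPX4 was most like PRDX2 (0.946), IDH3G (0.940) and NDUFB11 (0.934), and GPX3 like MAP1LC3A (0.911), BCKDHB (0.908) and SMYD2 (0.906). SOD1 was most like SEM1 (0.937), VCP (0.906) and PSMA1 (0.898), and GCLM like PSMA1 (0.884), IRAK1 (0.882) and SQSTM1 (0.842). CAT was most like ATP5J (0.910), AKR1CL1 (0.885) and ARL1 (0.880). The weakest partners were those of SOD3, with MRPL58 (0.794), PPA1 (0.788) and C1H6orf203 (0.780), and of GPX1, with CDK2AP2 (0.807), METTL26 (0.705) and YBEY (0.702).

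The skeletal muscle markers themselves were brighter at the later ages. The sum of their signals ran between 564932 and 755272 at 1 dpn and between 275051 and 419473 at 94 dpc, without overlap, and between 659788 and 876720 at 188 dpn. The sum of 8 fibroblast and matrix markers ran between 23932 and 43806 at 188 dpn and between 71398 and 91216 at 94 dpc, and that of 9 endothelial markers between 3180 and 4386 and between 7718 and 13819. The part of the mix of cell types in the courses of the 10 genes was not tested. Of 12 erythroid markers 5 were measured, with sums of 422 to 2125 over all arrays.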

How the data were processed

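The authors' deposited values were linear signal intensity, 1 per probe set and array, made with GCOS 1.1.1 per the submitters' processing notes. The deposited arrays had been scaled to a trimmed mean (2% off each end) of 498.3 to 499.4. Probe summary settings are not given in the sources used here. Values were taken as log2. The 183 control probe sets were left out, 23935 remained, and no low values were filtered. Stages were taken from the labels and animals numbered by sample order.

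The test was that of limma, version 3.58.1, run under R 4.3.3 (lmFit and eBayes, 24 arrays, 4 stage means, 20 residual degrees of freedom, two-sided, Benjamini-Hochberg over all tested probe sets, threshold 0.05), with the package data.table (1.17.8). Plots came from matplotlib 3.10.9, and pandas 2.3.3 and numpy 2.4.6 under Python 3.11.15 made the summaries. Background was the 95th percentile of 17 Tag control probe sets, a signal of 74.7, chosen with the data seen. Where all arrays of a stage lay under it, a fold is a bound, while the p-value is that of the deposited values. Gene symbols are those of the platform annotation, in which 10069 probe sets had 1 symbol, 198 several and 13668 none. A gene of several probe sets was read by its brightest. The number of arrays limits the precision. Tested on simulated data for 1 dpn against 94 dpc with 23935 probe sets, 24% of 100 changes of 1 on the log2 scale and 52% of 100 changes of 2 were recovered. No other probe set was changed there, while 31.0% of all probe sets passed in the data. With so few changes the Benjamini-Hochberg cut is stricter, so these shares do not give the recovery in the data.

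The members and lists were chosen with earlier results of these data known. Named were all members, per list up to 4 called genes of largest difference and the brightest, and per member the 3 most correlated genes. Which of the list genes this allows are printed was settled while writing, and PRDX1, TXN2 and TXNRD1 were added to the thioredoxin genes after their values were seen. Alternatives were quantile normalization, median centring, 16 or 64 added before the log2, no dimmest 30%, an adjusted p of 0.01, only the 2 stages compared, eBayes with trend and robust settings, array weights, the mean of a gene's probe sets and each animal left out in turn. The 4 alternatives without arrays of low 5′ signal (EF1A ratio under 0.2), of high plasma protein signal (list median above 500) or without their stage mates were chosen after seeing the data. No sequence or coordinate was used here.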

Additional observations from a re-analysis of the deposited data

Results flagged for a closer look

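Of 48 sets of 6 arrays, each probe set at each stage, 4 had an animal that stood apart, its gap to the nearest other animal, as a share of the whole range, being above Dixon's 95% critical value for 6 values. Chance alone flags about 1 set in 20. The GPX1 signal of animal 1 at 1 dpn was 3225, the lowest of its stage. At 28 dpn animal 5 was lowest for GPX1 at 3822. The PRDX6 signal of animal 5 at 94 dpc was 1838. The dim GCLM probe set had a signal of 2.99 in animal 1 of 28 dpn, far under background.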

How the results depend on the processing

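Of the differences of single probe sets, 43 passed the threshold with the values as deposited, and of their 991 values under the alternatives listed 2 turned direction, both of GPX4 with the mean of its probe sets: -0.51 at 188 dpn and -0.0862 at 28 dpn, each against 94 dpc. In 78 of these values, from 19 of the 43 differences, the call was lost. Quantile normalization left 5 of the antioxidant genes called at 1 dpn against 94 dpc and 2 at 188 dpn against 28 dpn. At an adjusted p of 0.01, 1 was called at 188 dpn against 28 dpn and 5 at 28 dpn against 94 dpc, and of all probe sets 4824 at 1 dpn against 94 dpc, 2735 at 28 dpn against 1 dpn, 1856 at 188 dpn against 28 dpn and 4252 at 28 dpn against 94 dpc. With only the 2 stages compared, 3091 probe sets were called at 28 dpn against 1 dpn. Without the 1 dpn arrays of low 5′ signal there were 3088, against 4945 with all arrays. Without the other 1 dpn arrays 5 antioxidant genes were called against 94 dpc, where 2607 probe sets were higher and 4864 lower. At 188 dpn against 28 dpn, leaving out the arrays of high plasma protein signal gave 1 antioxidant gene and 2072 probe sets, against 3498 with all arrays. Leaving out the other 188 dpn arrays gave 2 genes, where 686 probe sets were higher and 1761 lower. With each animal left out in turn, 7 to 9 antioxidant genes were called at 1 dpn against 94 dpc, 4 to 6 at 28 dpn against 1 dpn, 2 to 4 at 188 dpn against 28 dpn, where 2 came without animal 2 of 188 dpn, 10 at 188 dpn against 94 dpc, 7 to 9 at 28 dpn against 94 dpc and 4 to 5 at 188 dpn against 1 dpn. The cause of these changes was not tested.

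Differences that had not passed changed sign 54 times, in 18 results. With the mean of a gene's probe sets these were GPX4 at 28 dpn (-0.32) and at 188 dpn (-0.75) against 1 dpn, and GCLM at 188 dpn against 1 dpn (-0.39). Under quantile normalization these were the dim GPX4 probe set at 1 dpn against 94 dpc (0.00855), PRDX3 at 188 dpn against 28 dpn (0.0148), the dim GCLM probe set at 188 dpn against 94 dpc (0.12) and GPX4 at 188 dpn against 1 dpn (-0.0565). Centring turned the dim GPX4 probe set at 1 dpn against 94 dpc (0.12), GPX4 at 28 dpn against 1 dpn (-0.0298), GPX4 (0.25), PRDX3 (0.25) and SOD2 (0.16) at 188 dpn against 28 dpn, the dim GCLM probe set at 188 dpn against 94 dpc (0.30) and GPX1 at 188 dpn against 1 dpn (0.0802). Without the 1 dpn arrays of low 5′ signal GPX4 (-0.20) and GPX3 (-0.0997) turned at 28 dpn against 1 dpn, and GPX4 (-0.22) and SOD3 (-0.0905) at 188 dpn against 1 dpn. Without the other 1 dpn arrays GPX3 turned at 1 dpn against 94 dpc (-0.52), SOD3 at 28 dpn against 1 dpn (0.46), and GCLM (-0.00208) and GPX1 (0.16) at 188 dpn against 1 dpn. Without the 188 dpn arrays of high plasma protein signal GPX4 (0.12), PRDX3 (0.0732) and SOD2 (0.0405) turned at 188 dpn against 28 dpn, the dim GCLM probe set against 94 dpc (0.23) and GPX1 against 1 dpn (0.0560). Without the other 188 dpn arrays the dim GCLM probe set turned against 28 dpn (-0.15) and GPX4 against 1 dpn (-0.13). With each animal left out, the ranges that crossed 0 were -0.39 to 0.11 for the dim GPX4 probe set at 1 dpn against 94 dpc, and at 28 dpn against 1 dpn -0.16 to 0.000802 for CAT, -0.0846 to 0.0926 for GPX4 and -0.38 to 0.38 for SOD3. At 188 dpn against 28 dpn they were -0.0756 to 0.0353 for GPX4, -0.0483 to 0.0305 for PRDX3 and -0.26 to 0.81 for the dim GCLM probe set. That probe set also ran over -0.62 to 0.26 at 188 dpn and -0.93 to 0.0249 at 28 dpn against 94 dpc, and at 188 dpn against 1 dpn GPX4 ran over -0.10 to 0.0727 and GPX1 over -0.50 to 0.0401. No paired analysis was possible because the animal numbers follow sample order and pair no animals across stages. Signals near background limit SOD3, GCLM at 94 dpc and the dim probe sets of GPX4 and GCLM.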
